A study of Mus musculus with 4 samples.

Results

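The 10 genes Marco, Msr1, Cd36, Cd163, Mrc1, Stab1, Stab2, Scarb1, Cd68 and Lrp1 encode scavenger and endocytic receptors of macrophages. They were taken by symbol from a table of 11111 genes, and all 10 listed genes were in it. The table comes from RNA sequencing of 4 libraries of bone marrow-derived macrophages, grown over 7 days from the marrow of C57BL/6 mice with fresh medium on day 4. The Reg1-MOs group, 2 libraries, had taken up morpholinos (antisense oligomers that block RNA without cutting it) aimed at Regnase-1, and the Ctrl MO group, 2 libraries, a control morpholino. Both were used at 2 µM for 24 hours, with 6 µl/ml of the carrier Endoporter. All cells then received the bacterial product lipopolysaccharide (LPS, 10 ng/ml) for 4 hours, so every value is from stimulated cells and no unstimulated group is compared here. Whether the replicates stem from separate animals or culture wells is not stated, so p-values reflect the differences among these 4 libraries alone, and those may be technical. The headers number the Reg1-MOs libraries as MO1 and MO2. The targeting oligomers carry the same 2 names, so each library may have received 1 of them or both.

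Scavenger receptors bind modified lipoproteins, microbes, damaged proteins and dying cells and carry them into the endocytic pathway. They fall into classes with little shared structure: class A receptors are collagen-like trimers, class B receptors cross the membrane at both ends, and others carry lectin, cysteine-rich or lipoprotein-receptor repeats. In macrophages several of them serve as markers, CD68 of the lineage at large and CD163 and the mannose receptor of cells with clearance functions. Regnase-1, the product of Zc3h12a, is an RNase that degrades mRNAs of inflammation-related genes and its own.

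Depth was similar in the 4 libraries, at 23369753 to 24652918 reads of the table with Reg1-MOs and 24904180 to 25213695 with Ctrl MO. Zc3h12a, the targeted gene, had 7799 and 6753 reads with Reg1-MOs, against 3407 and 3572 reads with Ctrl MO, and rose by 1.10 on the log2 scale (limma adjusted p = 4.01e-04). Morpholinos do not cut RNA, so the level of this mRNA does not measure how far the protein was lowered, and the cause of its rise was not tested.

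In Reg1-MOs cells 7 of the 10 receptor genes fell, 1 rose and 2 did not pass the test, where 6.03% of all genes fell, 6.22% rose and 12.2% changed in either direction. The haemoglobin scavenger receptor gene Cd163 fell furthest, with 1 and 5 reads against 71 and 71 reads in Ctrl MO cells. The stabilin genes Stab1 and Stab2, the collagen-like receptor gene Marco, the large endocytic receptor gene Lrp1 and the mannose receptor gene Mrc1 fell to between 1.63-fold and 2.49-fold lower levels, and the class A receptor gene Msr1 to a 1.35-fold lower level. Cd68, encoding a glycoprotein of late endosomes and lysosomes, rose, while the class B receptor genes Cd36 and Scarb1 each stood at -0.08 on the log2 scale. The test was limma's moderated test, fitted across every gene on the log2 values as deposited, with Benjamini-Hochberg adjustment over the table and a threshold of 0.05. Markers of stromal cells fell in the same libraries, 9 of 9 measured, and their part in these values was not tested. Because these are bulk samples, fewer cells of a type and less RNA per cell cannot be told apart.

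Sequences are shown for 3 of the promoters, those of the gene with the furthest fall, of the gene with the most matches to a searched motif, and of the gene that rose. RefSeq promoters of build GRCm38.p6 were matched by symbol for 8 of the 10 genes. For each, the 250 bases before the transcription start were searched on both strands. Capitals mark GAGGAA, the core of sites for PU.1, a lineage factor of macrophages. Where the match lies on the other strand, as in Mrc1, the capitals read TTCCTC.
Cd163: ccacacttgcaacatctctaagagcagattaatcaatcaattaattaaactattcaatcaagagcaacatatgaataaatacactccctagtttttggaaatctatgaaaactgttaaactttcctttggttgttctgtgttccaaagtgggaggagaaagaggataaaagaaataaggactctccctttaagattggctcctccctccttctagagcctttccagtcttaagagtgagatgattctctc
Mrc1: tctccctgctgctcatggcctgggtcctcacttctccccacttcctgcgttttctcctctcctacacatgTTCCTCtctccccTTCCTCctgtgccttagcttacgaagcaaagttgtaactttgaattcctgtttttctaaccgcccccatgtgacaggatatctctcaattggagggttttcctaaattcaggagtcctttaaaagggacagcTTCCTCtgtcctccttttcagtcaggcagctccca
Cd68: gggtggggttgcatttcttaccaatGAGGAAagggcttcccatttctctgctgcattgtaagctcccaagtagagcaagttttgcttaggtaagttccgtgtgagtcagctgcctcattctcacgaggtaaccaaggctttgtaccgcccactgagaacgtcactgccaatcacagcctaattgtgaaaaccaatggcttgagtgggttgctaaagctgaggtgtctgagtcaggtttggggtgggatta
These lie at chr6:124304401-124304650, plus strand for Cd163, chr2:14229164-14229413, plus strand for Mrc1 and chr11:69666171-69666420, minus strand for Cd68. The Mrc1 promoter held 3 matches, whose first bases lie 180, 167 and 35 bases before the start, and the Cd68 promoter held 1, at 225 bases. The Cd163 promoter had no match and was the most AT-rich of the 8, with 36.8% G and C, against 67.2% in that of Lrp1. GAGGAA was also in the promoters of Marco and Stab1, which makes 4 of 8, and in 23.3% of the 32851 promoters of the table. The longer letters GAGGAAGT were in 0 of 8 and in 2.44% of all, and TGACNNNGC, a core of antioxidant response elements, in 1 of 8, that of Lrp1, and 10.2%. A string for the core of the Maf recognition element, with 1 fixed spacing between its letters, was in 0 of 8 and in 1.02% of all. Elements with another spacing could not match that string, so its 0 of 8 does not show that Maf elements were absent. The 2 PU.1 strings were added after the other strings had been searched, and GAGGAA, which lies within GAGGAAGT, after that had no match. Genes with and without GAGGAA were both among those that fell, and a match is a description of letters only.

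Levels can be compared between genes only per length, and were therefore set as reads per kilobase of merged exons and per 1000000 reads of the table (RPKM here). On this scale Cd68 was the most abundant of the 10 genes, at 810 and 713 RPKM in Reg1-MOs libraries and 607 and 574 RPKM in Ctrl MO libraries. Cd36 followed at 317 and 304 RPKM with Reg1-MOs and 328 and 320 RPKM with Ctrl MO, and then Msr1 at 159 and 162 RPKM with Reg1-MOs and 212 and 214 RPKM with Ctrl MO. Each of these 3 genes exceeded at least 97.3% of the 11088 genes with a length in both groups.

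The middle of the order was held by Mrc1, Stab1, Lrp1 and Marco, with means of 35.9, 21.7, 18.8 and 14.6 RPKM in Reg1-MOs libraries and 57.6, 41.0, 33.5 and 26.7 RPKM in Ctrl MO libraries. Neighbours in this part of the order did not overlap between libraries of the same group. Scarb1 lay far lower, at means of 2.97 RPKM with Reg1-MOs and 3.10 RPKM with Ctrl MO, near the middle of all genes. Stab2 and Cd163 were the lowest, at means of 0.166 and 0.0233 RPKM with Reg1-MOs and 0.410 and 0.519 RPKM with Ctrl MO. The order of the first 8 genes was the same in both groups, and that of the last 2 was exchanged.

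**Figure D1:**
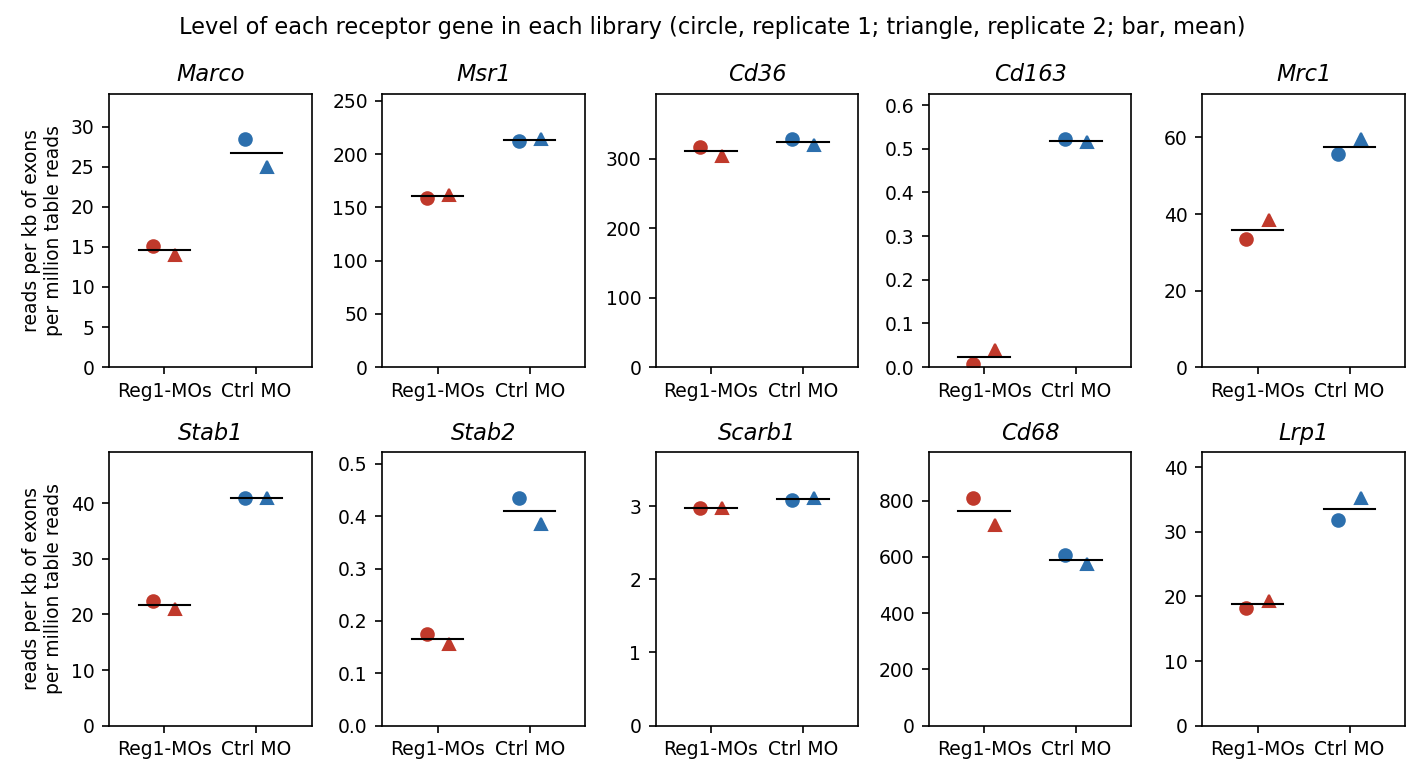
Reads per kilobase of merged exons and per 1000000 table reads (y axis, linear, starting at 0, own scale per panel) for the 10 receptor genes in Reg1-MOs (left, red) and Ctrl MO (right, blue) libraries, with circles for replicate 1, triangles for replicate 2 and a bar for the mean of 2. Both Reg1-MOs libraries lie below both Ctrl MO libraries in 9 panels and above them in the Cd68 panel.

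The summed per-length level of the 10 genes was 1378 and 1275 RPKM in Reg1-MOs libraries and 1308 and 1272 RPKM in Ctrl MO libraries, which overlap. Cd68 made up 58.8% and 55.9% of the sum with Reg1-MOs, against 46.4% and 45.1% with Ctrl MO. Without Cd68 the sum of the other 9 genes was 568 and 562 RPKM in Reg1-MOs libraries, against 701 and 699 RPKM in Ctrl MO libraries. As a share of all reads in the table, with no correction for length, the 10 genes held 0.399% and 0.387% in Reg1-MOs libraries and 0.471% and 0.473% in Ctrl MO libraries.

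Both class A receptor genes fell. Marco (chromosome 1, 120474538 to 120505024, minus strand; GENCODE M21 on GRCm38, as for all positions below), whose product binds bacteria and inhaled particles, had 718 and 630 reads with Reg1-MOs, against 1363 and 1214 reads with Ctrl MO. It fell by 0.90 on the log2 scale (SE 0.09, limma adjusted p = 0.00171). Msr1 (chromosome 8, 39581685 to 39642673, minus strand), encoding the receptor first described for acetylated low-density lipoprotein, had 24893 and 24030 reads with Reg1-MOs, against 33556 and 34255 reads with Ctrl MO. It fell by 0.43 (SE 0.06, adjusted p = 0.00620), a call that ended without Ctrl MO replicate 2 (adjusted p = 0.0556) and without a variance trend (0.0728). The log2 ratio of Marco to Msr1 reads was -5.11 and -5.25 with Reg1-MOs and -4.62 and -4.82 with Ctrl MO. An exact two-sided permutation test of that ratio gave p = 0.333, the smallest that 2 libraries against 2 allow.

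The class B receptors did not pass. Cd36 (chromosome 5, 17781690 to 17888801, minus strand), whose product takes up oxidised lipoproteins and long-chain fatty acids, had 28012 and 25508 reads with Reg1-MOs and 29323 and 28924 reads with Ctrl MO. Its log2 fold change was -0.08 with a 95% interval of -0.22 to 0.06 (limma adjusted p = 0.389). Scarb1 (chromosome 5, 125277087 to 125341094, minus strand), encoding the high-density lipoprotein receptor SR-BI, had 624 and 590 reads with Reg1-MOs and 652 and 668 reads with Ctrl MO. Its value was -0.08 with an interval of -0.27 to 0.11 (adjusted p = 0.549). For both genes the interval leaves out falls as large as that of any of the 7 genes that fell, Msr1 included. The Reg1-MOs libraries still lay below the Ctrl MO libraries in each case. That ordering was found in 9 of the 10 genes and in 31.8% of the table, and the opposite one, as for Cd68, in 27.1%.

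Cd163 (chromosome 6, 124304656 to 124330527, plus strand) encodes the receptor that clears complexes of haptoglobin and haemoglobin. Its value of -4.60 on the log2 scale (SE 0.60, limma adjusted p = 0.00416) was the lowest of all 11111 genes. The size rests on few reads. With an offset of 8 reads in place of 0.5 it was -2.83 and second lowest, and leaving out Reg1-MOs replicate 1 gave -3.60 and leaving out replicate 2 gave -5.60. Counting error alone puts the read share in Ctrl MO libraries at 22.7 times that in Reg1-MOs libraries, from 142 reads against 6 in the Reg1-MOs pair, with an exact 95% binomial interval of 10.2 to 62.8. The call ended without a variance trend (adjusted p = 0.0575). Hmox1, encoding the enzyme that breaks down haem, the cargo that CD163 brings in, was 16.1-fold higher in the same libraries (32264 and 24808 reads with Reg1-MOs, against 1779 and 1825 with Ctrl MO, limma adjusted p = 2.67e-06).

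The mannose receptor gene Mrc1 (chromosome 2, 14229392 to 14332057, plus strand) encodes a lectin for mannose-bearing glycoproteins and microbes. It had 5252 and 5726 reads with Reg1-MOs, against 8816 and 9568 reads with Ctrl MO, and fell by 0.70 (SE 0.09, limma adjusted p = 0.00437). Leaving out Reg1-MOs replicate 1 gave -0.58 and leaving out replicate 2 gave -0.83, and the call ended without a variance trend (adjusted p = 0.0657). Of its 3 relatives in the same receptor family, Mrc2, a collagen receptor, was measured at 16 and 13 reads with Reg1-MOs and 39 and 48 reads with Ctrl MO, and fell by 1.51 (adjusted p = 0.0105, and 0.0554 without Reg1-MOs replicate 1). Ly75, encoding the uptake receptor DEC-205, rose by 0.84 (adjusted p = 0.0472). That call ended without either Reg1-MOs library (adjusted p up to 0.120), without a variance trend (0.135), with precision weights (0.0570) and with a minimum mean of 50 reads (0.0520). Pla2r1 stood at -0.58 (adjusted p = 0.0899).

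Both stabilin genes fell. Stabilins clear acetylated lipoproteins and apoptotic cells, and stabilin-2, a receptor for hyaluronan, is best known from sinusoidal endothelium. Stab1 (chromosome 14, 31139013 to 31168641, minus strand) had 5683 and 5038 reads with Reg1-MOs, against 10508 and 10630 reads with Ctrl MO. It fell by 0.94 (SE 0.06, limma adjusted p = 4.48e-04), the lowest adjusted p among the 10 genes. Stab2 (chromosome 10, 86841198 to 87008025, minus strand) had 38 and 32 reads with Reg1-MOs, against 95 and 85 reads with Ctrl MO, and fell by 1.31 (SE 0.18, adjusted p = 0.00467). The log2 ratio of Stab2 to Stab1 reads was -7.21 and -7.28 with Reg1-MOs and -6.78 and -6.96 with Ctrl MO (exact two-sided permutation p = 0.333, the smallest possible here). Markers of endothelium were measured at 5 genes, and Stab2 among them is also 1 of the 10 receptor genes. Stab2 fell and Vwf, encoding von Willebrand factor, rose by 0.68, with a median of -0.49 over the 5. No marker besides Stab2 fell. The adhesion gene Pecam1 stood at -0.54 (adjusted p = 0.0648), and Flt1 and Kdr, encoding receptors for vascular endothelial growth factor, at -0.49 (0.0650) and -0.35 (0.0922). For 4 of the 5 markers, Stab2 included, both Reg1-MOs libraries lay below both Ctrl MO libraries, an ordering found in 31.8% of the table. Without Reg1-MOs replicate 2, Kdr (-0.51, adjusted p = 0.0338) and Flt1 (-0.66, 0.0441) passed too. The part of these cells in the values of the stabilin genes was not tested. Summed, those 5 held 73.9 and 79.7 reads per 1000000 with Reg1-MOs and 76.9 and 74.8 with Ctrl MO.

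Lrp1 (chromosome 10, 127538161 to 127621148, minus strand) encodes a very large receptor of a family of lipoprotein receptors that takes up apolipoprotein E-rich lipoproteins and protease complexes. It had 7984 and 7995 reads with Reg1-MOs, against 14027 and 15763 reads with Ctrl MO, and fell by 0.86 (SE 0.08, limma adjusted p = 0.00153). Among 14 measured relatives and partners of the family, 2 rose and 1 fell, with a median of 0.08 against -0.03 over all genes. Of all genes, 12.2% were called in either direction, with 6.22% rising and 6.03% falling. The ligand gene Apoe fell by 0.43 (adjusted p = 0.0146, and 0.0814 without Ctrl MO replicate 1). Lrp8, the apolipoprotein E receptor 2 gene, rose by 1.56 on 69 and 49 reads with Reg1-MOs and 18 and 22 reads with Ctrl MO (adjusted p = 0.00754, and 0.0694 without Reg1-MOs replicate 1), and Lrp12 rose by 0.78 (0.00820). Without a variance trend the calls of Apoe (0.0999) and Lrp12 (0.0761) ended.

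Cd68 (chromosome 11, 69664213 to 69666153, minus strand) was the gene that rose, with 25113 and 20956 reads with Reg1-MOs and 18993 and 18182 reads with Ctrl MO. This is 0.34 on the log2 scale (SE 0.07, limma adjusted p = 0.0220). This call did not hold without Ctrl MO replicate 1 (adjusted p = 0.0938), Ctrl MO replicate 2 (0.210) or Reg1-MOs replicate 1 (0.0796), or without a variance trend (0.125), although the value stayed between 0.28 and 0.41. The log2 ratio of Cd68 to Lrp1 reads was 1.65 and 1.39 with Reg1-MOs and 0.44 and 0.21 with Ctrl MO. The exact two-sided permutation p of that ratio was again 0.333, the smallest possible here, so the test could not reach the threshold of 0.05. The other ratio formed, of Scarb1 to Cd36 reads, had a mean of -5.46 in each group (exact two-sided permutation p = 0.667).

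**Figure D2:**
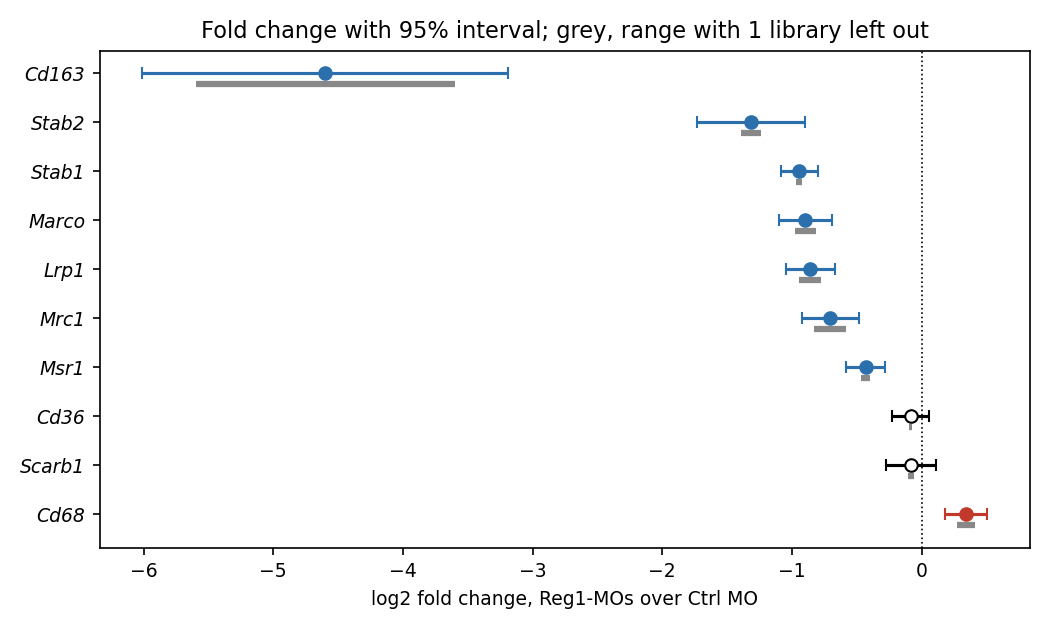
Log2 fold change of Reg1-MOs over Ctrl MO (x axis) for the 10 receptor genes, with limma's 95% interval as a bar, and in grey the range when any 1 of the 4 libraries was left out; blue fell, red rose, and open circles did not pass. The intervals of Cd36 (-0.22 to 0.06) and Scarb1 (-0.27 to 0.11) cross 0, and that of Cd163 (-6.01 to -3.19) is the widest.

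The calls of Marco, Cd163, Mrc1, Stab1, Stab2 and Lrp1 held in all 4 fits that leave out 1 library, at an adjusted p of 0.0419 or lower. The receptor genes were about as reproducible as other genes apart from Cd163. The median gap between the Reg1-MOs libraries was 0.10 on the log2 scale for the 10 genes and 0.15 for all genes, and between the Ctrl MO libraries it was 0.05 for the 10 genes and 0.09 for all. The gap of Cd163 between the Reg1-MOs libraries was 2.00. The fold changes of the 10 genes had a median of -0.78, beside -0.03 over all genes.

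**Figure D3:**
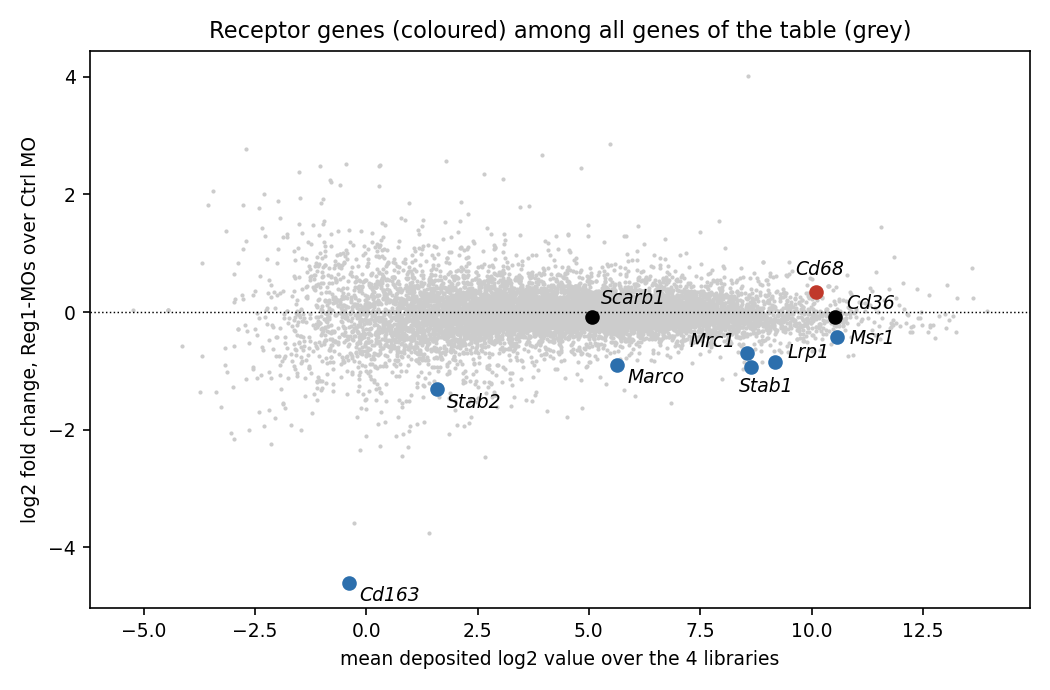
Mean deposited log2 value over the 4 libraries (x axis) against the log2 fold change of Reg1-MOs over Ctrl MO (y axis) for all 11111 genes (grey) and the 10 receptor genes (coloured as fallen, blue, risen, red, or not past the test, black). Cd163 is the lowest point of the table at -4.60, and Mrc1, Stab1 and Lrp1 lie near each other between -0.70 and -0.94.

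Of 30 measured genes reaching within 100000 bp of a receptor gene, 2 rose and 1 fell, near the 12.2% called over the whole table. The single neighbour of Cd163, Pex5, stood at -0.01, and none of the 7 neighbours of Stab1 passed, among them Nt5dc2 (0.19), which overlaps it on the other strand. The strand setting of the authors' counting is not stated, so reads from that overlap cannot be assigned with certainty. Beside Lrp1, the corepressor gene Nab2 fell by 0.45 (limma adjusted p = 0.0122, and 0.0501 without Ctrl MO replicate 1) while the other 4, Stat6 included, did not pass. Beside Cd68, Trp53 rose by 0.41 (adjusted p = 0.0257, and at most 0.170 in the fits lacking either control library or Reg1-MOs replicate 1), and beside Cd36, the semaphorin gene Sema3c rose by 0.92 (0.0237, and 0.0707 without Reg1-MOs replicate 2). None of these 3 calls held when no variance trend was fitted (adjusted p = 0.0690 to 0.100).

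Other scavenger receptors were measured at 10 of 17 listed genes, of which 4 fell and none rose, with a median of -0.09. Of all genes, 6.03% fell and 6.22% rose. Cd5l, encoding a secreted scavenger receptor protein of macrophages, fell by 0.49 (limma adjusted p = 0.00503). Colec12, encoding another collagen-like receptor, fell by 0.57 (0.0105), and Clec7a, encoding the beta-glucan receptor dectin-1, by 0.30 (0.0235). Scarf2 fell by 1.03 (0.0366) on 26 to 75 reads. Clec7a did not pass in the fits lacking either control library or Reg1-MOs replicate 1 (adjusted p, at most, 0.311), nor Colec12 in those lacking Reg1-MOs replicate 1 or Ctrl MO replicate 2 (up to 0.0659) nor Scarf2 in the one lacking Reg1-MOs replicate 2 (0.0718). Falls in this list numbered 2 in the fits lacking Reg1-MOs replicate 1 or Ctrl MO replicate 2, and 0 when no variance trend was fitted. Scarb2, the lysosomal relative of Cd36 and Scarb1, stood at 0.05 (adjusted p = 0.683).

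Receptors and bridging proteins for apoptotic cells, several of which share ligands with the stabilins and Cd36, had 5 falls and no rise among 15 measured genes, with a median of -0.21. The shares over all genes were 6.03% for falls and 6.22% for rises. The phosphatidylserine receptor gene Timd4 fell by 3.59 (SE 0.36, limma adjusted p = 0.00192), with 3 and 5 reads in Reg1-MOs libraries against 52 and 56 reads in Ctrl MO libraries, the third lowest fold change of the table. The receptor tyrosine kinase gene Axl fell by 0.55 (0.00312) and Pros1, encoding its family's ligand protein S, by 0.56 (0.0123). Falls numbered 3 in the fit lacking Reg1-MOs replicate 1, and 1 when no variance trend was fitted.

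Genes of the machinery that receptors share were called at about the share of all genes, 12.2%, with 3 of 24 for coated pits and 3 of 22 for recycling and sorting. Among the 24 measured genes of coated pits, Cltb (0.45) and Necap1 (0.29) rose and the adaptor gene Ap2a2 (-0.33) fell, with a median of 0.06, and the clathrin heavy chain gene Cltc stood at -0.14 (limma adjusted p = 0.400). These 3 calls did not hold with a library left out (adjusted p up to 0.282) or without a variance trend (0.0700 to 0.126). Among the 22 genes of endosomal recycling and sorting, Gga2 (0.57) and Commd1 (0.38) rose and Snx2 (-0.23) fell, with a median of 0.05. Of these, the Gga2 call held with any 1 library left out (adjusted p up to 0.0447), and those of Commd1 and Snx2 did not (up to 0.425), nor without a variance trend (0.109 and 0.165). Among 11 shedding proteases and their inhibitors and partners, Timp3 (-1.78, and adjusted p = 0.0570 without Reg1-MOs replicate 1) and Tspan33 (-0.58, and 0.0650 without a variance trend) fell, while Adam17 (-0.13), encoding the protease known to release CD163 from the surface, did not pass (0.296).

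Among 14 transcription factors known to act on these receptor genes, 2 rose and 1 fell, where 12.2% of all genes were called in either direction. Klf4 rose by 1.30 (limma adjusted p = 0.00121) and Tfeb, a regulator of lysosomal genes, by 0.64 (0.0278). Maf, encoding a factor of resident macrophages, fell by 0.29 (0.0305), a call lost in the fits lacking either control library or Reg1-MOs replicate 1 (adjusted p, at most, 0.305). The Tfeb call was lost in those lacking Reg1-MOs replicate 1 or Ctrl MO replicate 2 (at most 0.110), and both that and the Maf call without a variance trend (0.0758 and 0.137). Spi1, encoding PU.1, stood at -0.02 (0.908), Pparg, a regulator of Cd36, at 0.22 (0.198) and Nfe2l2 at 0.14 (0.176).

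**Figure D4:**
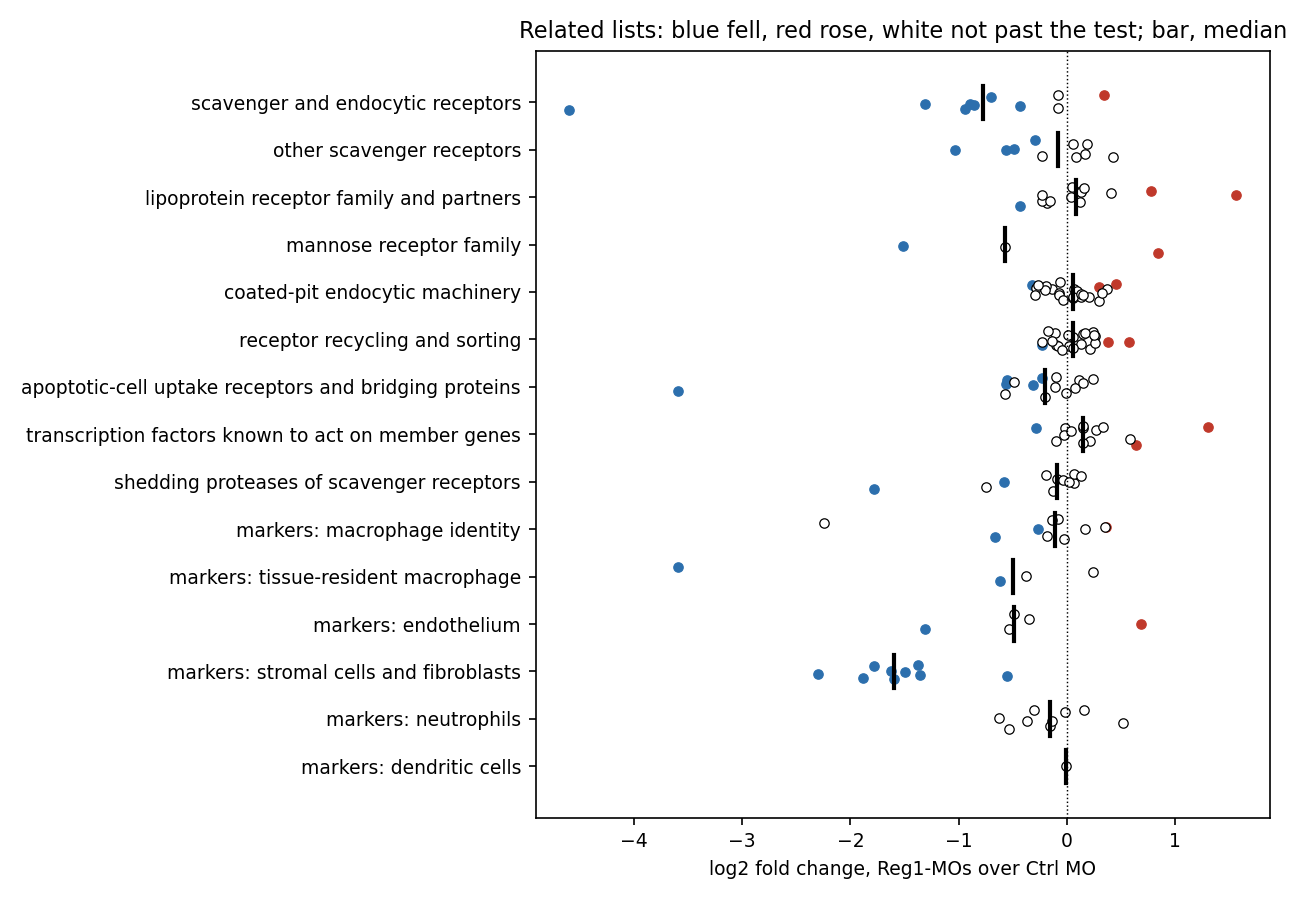
Log2 fold change of Reg1-MOs over Ctrl MO (x axis) for each measured gene of the receptor list and of 14 related lists (rows), blue where it fell, red where it rose and white where it did not pass, with a bar at each list's median. The medians are -0.78 for the receptor genes, 0.06 for coated-pit genes and -1.59 for markers of stromal cells and fibroblasts.

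Among markers of other cells, those of stromal cells and fibroblasts fell in the same libraries as the receptor genes. Of 12 listed markers of stromal cells and fibroblasts 9 were measured, and all 9 fell, or 7 when no variance trend was fitted. Over the table, 6.03% of genes fell and 6.22% rose. The 9 markers had a median of -1.59 and included the collagen genes Col1a1 (-1.78) and Col1a2 (-1.63) and the matrix protein gene Sparc (-1.49). Their summed level was 66.4 and 72.3 reads per 1000000 in Reg1-MOs libraries, against 163 and 165 in Ctrl MO libraries, and each had 11 reads or more in every library. Lrp1 and Mrc2 are also known from fibroblasts. The macrophage identity genes, at 10 of 10 measured, gave 1 rise and 2 falls, with sums of 15478 and 15457 reads per 1000000 with Reg1-MOs and 16911 and 16864 with Ctrl MO. Among them Itgam fell by 0.67, and Adgre1, encoding the macrophage marker F4/80, stood at -0.18 (limma adjusted p = 0.105). Aif1 rose by 0.36 and Lyz2 fell by 0.27, and neither call held without either control library or without Reg1-MOs replicate 1 (adjusted p up to 0.160 for Aif1 and 0.355 for Lyz2). The Lyz2 call also ended without Reg1-MOs replicate 2 (0.0532) and with quantile normalization (0.0885). Of the 4 measured markers of tissue-resident macrophages, Timd4 and Fcna (-0.62) fell, while Siglec1 (-0.38) and Folr2 (0.24) did not pass. Summed, these 4 held 233 and 244 reads per 1000000 with Reg1-MOs and 240 and 252 with Ctrl MO. Without a variance trend the calls of Itgam (adjusted p = 0.0585), Fcna (0.0623), Aif1 (0.0879) and Lyz2 (0.134) ended. Of 9 neutrophil markers 0 passed by limma, and 2, Ltf (-0.37) and S100a8 (-0.31), had an unadjusted p under 0.05. The 1 measured marker of dendritic cells, Ccr9, stood at -0.01.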

How the data were processed

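RNA was sequenced in 4 libraries, 2 per group, grouped and numbered by their titles. Directional poly(A) libraries were sequenced on a NextSeq 500, per the labels' protocols. Cutadapt, FastQC, HISAT2 1.6.3 and mm10 are named, per the submitters' processing notes; how reads were counted, with or without strand, filtered and scaled is not given in the sources used here. In the table that the authors deposited, values are on a log2 scale. In every column these were log2 of (reads + 0.5) times a constant, since all rows gave reads within 0.01 of a whole number. Reads were recovered from this, and the totals are 1.27 to 1.32 times the library size that the authors' scale implies.

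All 11111 rows were fitted with limma 3.58.1 in R 4.3.3, with a mean-variance trend and no term but group; tests were two-sided, with Benjamini-Hochberg adjustment over the table, on 2 residual and 5.47 prior degrees of freedom. Identifiers matched GENCODE M21 (GRCm38) for 11088 rows, which gave positions and merged exon lengths. The 10 genes, the 14 other lists and the settings were chosen with earlier results of these data known. Named are all 10 genes, Zc3h12a, Hmox1 and neighbours that passed. In each list up to 3 rises and 3 falls with the smallest p are named, or the 2 smallest p where none passed. Pla2r1, Scarf2, Scarb2, Pecam1, Flt1, Kdr, Cltc, Adam17 and Spi1 were added after their values were seen. So were Pparg, Nfe2l2, Adgre1, Siglec1, Folr2, Pex5, Stat6 and Nt5dc2. Protein features, planned as well, are not analysed here. Alternatives were equal totals, quantile normalization, no variance trend, precision weights (voom), an offset of 8 reads, a minimum mean of 50 reads, a replicate block and each library left out.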

Additional observations from a re-analysis of the deposited data

How the results depend on the processing

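All 10 receptor genes kept their direction under each of the 11 alternatives in which they were fitted, 109 values in all, and 8 of these values lost a call, as given for Msr1, Cd163, Mrc1 and Cd68. Without a variance trend, 0 receptor genes rose and 4 fell, 195 genes of the table rose and 182 fell, and 4 rose and 11 fell among the 149 other listed genes, against 11 and 28 in the reported fit. With a replicate block, 1532 genes of the table rose and 1891 fell, as did 31 and 50 of the other listed genes, and no receptor gene changed its call. No label states a pairing, and same-numbered libraries deviated together only weakly (correlation 0.10 across genes). With 1 library left out, 0 to 1 receptor genes rose and 6 to 7 fell, 249 to 530 genes of the table rose and 258 to 860 fell, and 5 to 8 other listed genes rose and 19 to 31 fell. Equal totals left the receptor counts at 1 and 7 and moved the rises over the table to 883. Cd163, with a mean of 37.0 reads, could not be fitted with a minimum of 50. Depth limits Cd163 and Stab2, whose values rest on under 100 reads in each library.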
